A study of Homo sapiens with 32 samples.

Results

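Extraction day A was set against days B and C in 12 RNA libraries made from HCT116, a line of human colorectal cancer cells, out of the 32 samples of the series. The 12 libraries came from 4 control clones, numbered 1 to 4, and each clone gave 1 library on each day, so that 4 day A libraries faced 8 libraries of days B and C. They were taken by their clone and day labels, without use of any measured value. The control clones carried no deletion. They had received Cas9-GFP with the empty guide vector, had been sorted for GFP and had each been expanded from a single cell, in a study that compared such controls with clones lacking distal elements. No treatment separated the days, and growth to the same stated confluence, Trizol extraction, TruSeq v2 single-end libraries and NextSeq500 sequencing are described once for all of them. The labels state only that RNA was extracted on day A, B or C. Calendar dates, passage numbers, medium age and cell counts of the days were not found in the labels. With 1 day A, the culture, the harvest and the extraction of that day cannot be told apart, and p-values measure the spread between clones and libraries, not between days.

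Growing tumour cells spend much of their transcription on ribosomes, nucleotide supply, DNA replication and mitosis. When growth slows through crowding, spent medium or stress, cultured cells commonly lower these genes together and raise cell cycle inhibitors, antagonists of MYC and lysosomal genes. Whether growth differed between the days was not tested. RNA abundance in such cultures can also shift within minutes to hours of handling, as the immediate early genes and the heat shock genes do. All levels below are CPM, a gene's count scaled to the same total of gene counts in every library, and are thus relative within a library. A change in the number of cells in a state and a change in RNA per cell cannot be told apart.

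Gene counts totalled 10724569 to 14445320 in the day A libraries and 9871667 to 13332131 in the others, and the totals did not separate the days (exact permutation of the day A label within clones, 2-sided, p = 0.235). On the first principal component, which held 33.9% of the variance, the 4 day A libraries lay between -41.6 and -23.2 and the other 8 between 5.60 and 29.9. Mitochondrially encoded mRNA made up 5.24% to 6.60% of gene counts on day A and 4.71% to 5.01% on days B and C. Day A was higher in 4 of 4 clones, with a mean difference of 1.17 percentage points (exact permutation p = 0.0123, the smallest that the 81 arrangements allow, 0.0278 adjusted over 9 library measures). Genes with at least 1 count numbered 22064 to 23142 on day A and 21038 to 22118 on days B and C, and in each of the 4 clones the day A library had the most (exact permutation p = 0.0123, adjusted 0.0278). This number was not adjusted for depth. The day A library also had the most gene counts of its clone in clones 1 to 3, and the fewest in clone 4. In clone 1 the margin was small, at 22144 genes on day A against 22114 on day B. Reads aligned at several places made up 13.3% to 13.8% of all counted reads on day A and 12.3% to 13.04% on the other days (exact permutation p = 0.0123, adjusted 0.0278). Reads outside genes made up 7.78%, 9.33%, 9.21% and 11.7% of counted reads in the day A libraries of clones 1 to 4, so that clone 1 was the lowest and clone 4 lay farthest from its nearest neighbour. In the share of ribosomal protein mRNA the day A library of clone 1 stood apart, at 6.55% against 5.33% to 5.63%.

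**Figure D1:**
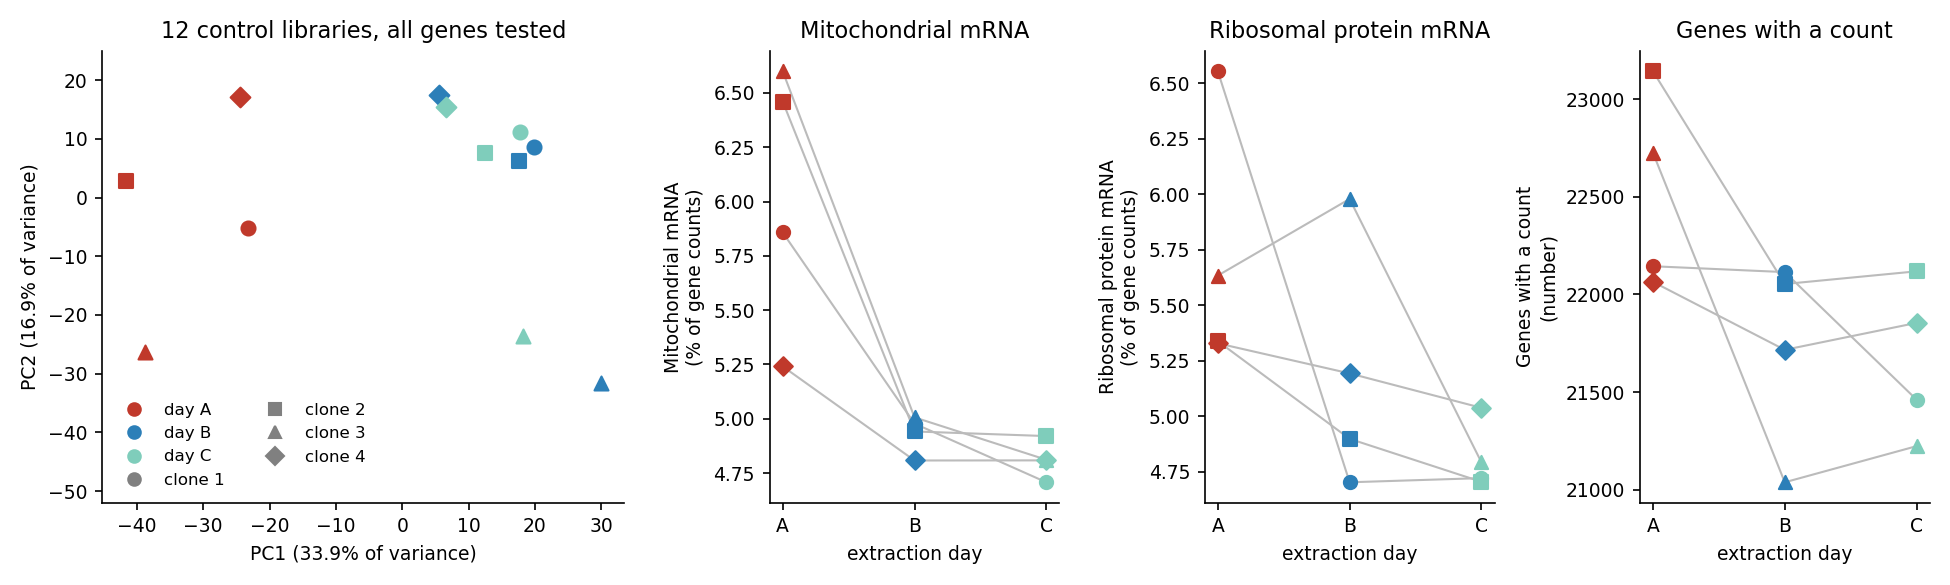
Left, the first and second principal components of log2 CPM in the 12 control libraries, coloured by extraction day, with a symbol for each clone. The other 3 panels give, for each library and joined by clone, the percent of gene counts from mitochondrially encoded mRNA, the percent from ribosomal protein mRNA and the number of genes with a count. The 4 day A libraries lie left of -23 on PC1, and their mitochondrial shares of 5.24% to 6.60% lie above the 8 other libraries.

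Day A differed from days B and C in a large share of the transcriptome. Of 14988 genes tested, 6331 (42.2%) passed in edgeR's quasi-likelihood test with clone as a term, at a Benjamini-Hochberg adjusted p below 0.05. The 3271 genes that were higher on day A made up 21.8% of those tested, and the 3060 that were lower 20.4%. Most of these differences were small: the median log2 difference was 0.51 among the higher genes and -0.33 among the lower ones, against 0.02 for all genes tested. At 1.5-fold or more, 1369 genes (9.13%) rose and 312 (2.08%) fell, and at 2-fold or more 483 (3.22%) rose and 50 (0.334%) fell. The larger differences were thus mostly increases. In 1264 genes (8.43%) all 4 day A libraries lay above all 8 others, 1211 of them (8.08%) also passing, and in 1057 (7.05%) below them, all of them passing. The balance of the calls depended on the scaling. Higher genes were 51.7% of the calls with TMM factors, 65.6% with upper-quartile factors and 61.2% with total counts, while the median of all genes moved to 0.09 and 0.06. Among fits that left out 1 clone or 1 library, the number of calls was lowest without clone 2, at 3427, and was 4212 without the day A library of clone 2 alone.

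**Figure D2:**
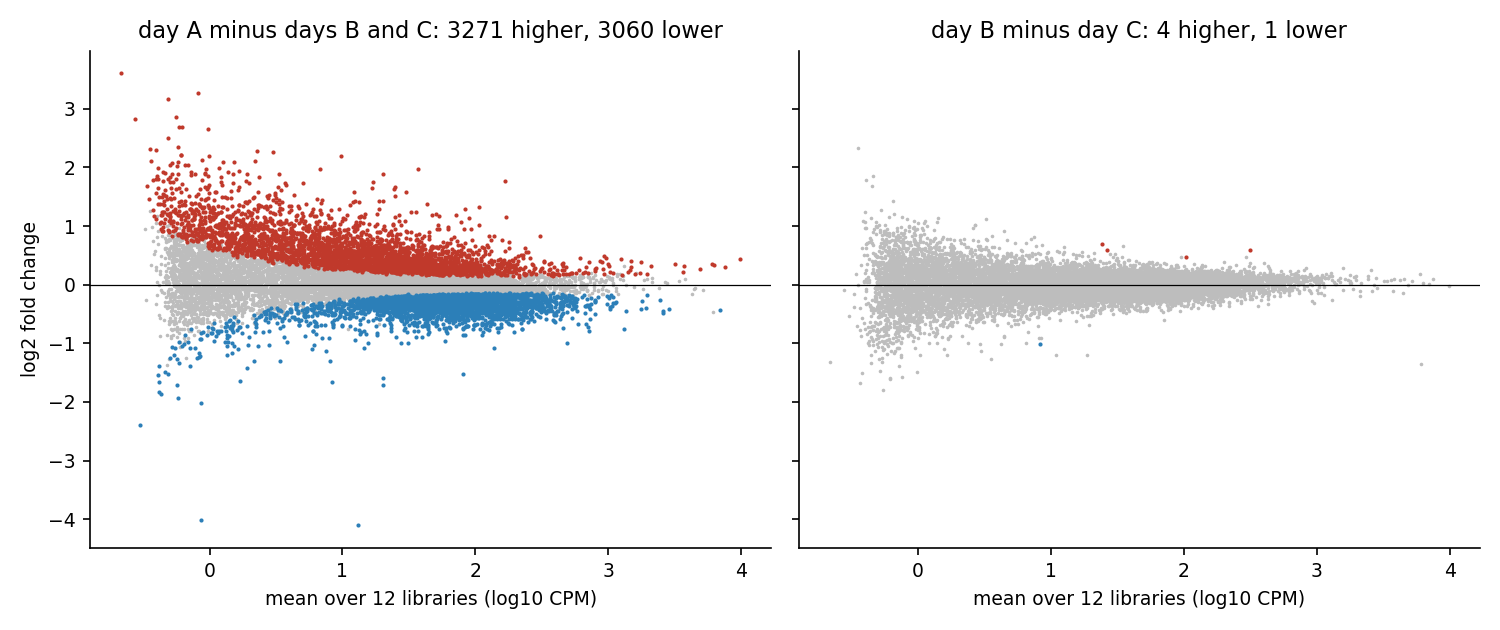
Log2 fold change of each gene tested against its mean over the 12 libraries (log10 CPM), for day A minus days B and C (left) and day B minus day C (right). Each point is a gene, and coloured points passed at an adjusted p below 0.05, red where higher and blue where lower. The left panel holds 3271 higher and 3060 lower genes and the right panel 4 and 1.

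The same genes were read in libraries of the same line that the fit did not use. A clone that lacks the element E7 gave 1 library on each of the 3 days, and of the 3271 genes higher on day A in the controls 87.4% were above both other days in the E7 library of day A, against 46.4% of all genes tested. Of the 3060 lower genes 79.0% were below both other days there, against 30.4% of all genes. Among clones that lack the element 18qNE, 2 gave a library on day A and another clone on day B. Both day A libraries were above the day B library for 78.1% of the higher genes (39.9% of all genes) and below it for 83.0% of the lower genes (34.2% of all genes). These libraries hold different clones, so that clone and day are mixed in the 18qNE values, and they were described without a test.

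PDK4 led the 12 genes chosen for the largest increases. This kinase, which shuts pyruvate out of the citric acid cycle, was at 5.01, 6.09, 8.12 and 5.97 CPM in clones 1 to 4 on day A and at 0.525 to 2.50 CPM with a median of 1.12 on days B and C. It rose by 2.27 on the log2 scale (SE 0.22, adjusted p = 7.83e-06), the largest increase among the genes that passed, reached a mean of 5 CPM and did not overlap. SYNPO, the actin-associated synaptopodin, was at 12.3, 26.7, 29.8 and 14.7 CPM on day A and 2.87 to 5.78 CPM with a median of 4.36 on the others, a rise of 2.19 (SE 0.15, adjusted p = 8.31e-07). Neither gene overlapped between day A and the other days, as was required of each gene chosen here for its size. PNRC1, a nuclear receptor coactivator that also takes part in mRNA decapping, was at 37.8, 51.2, 43.4 and 26.5 CPM on day A and 8.40 to 16.6 CPM with a median of 9.91 otherwise (rise of 1.88, SE 0.16, adjusted p = 4.13e-06). SAT1, the enzyme that acetylates spermidine and spermine for breakdown, varied most between clones. It was at 369.6, 603, 162 and 166 CPM on day A against 37.6 to 143 CPM with a median of 95.5, so that clones 1 and 2 stood above clones 3 and 4 while all 4 exceeded the other days (rise of 1.77, SE 0.14, adjusted p = 1.22e-06). TP53INP1, a p53 target that acts in autophagy and cell death, was at 36.9, 49.8, 57.4 and 41.4 CPM against 8.75 to 18.3 CPM with a median of 14.7 (rise of 1.66, SE 0.13, adjusted p = 1.16e-06). CCNG2, an unusual cyclin that restrains the cell cycle and is a target of FOXO factors, was at 25.1, 41.2, 34.7 and 22.4 CPM against 6.62 to 17.3 CPM with a median of 8.63 (rise of 1.66, SE 0.18, adjusted p = 1.82e-05). The other genes of this group were KLHL24, an adaptor of a ubiquitin ligase (1.76), the membrane progestin receptor PAQR8 (1.97), ZSWIM4 (1.74), the scaffold IQGAP2 (1.73), the Pellino ubiquitin ligase PELI2 (1.70) and the transmembrane collagen COL13A1 (1.66). In all 12 genes the difference was positive in each of the 4 clones, which the required lack of overlap all but fixed in advance. In 11 of them it was smaller in clone 4 than in clones 2 and 3. In the E7 clone too, all 12 had their highest value on day A, and PDK4 was at 3.23 CPM there against 0.913 and 0.958 on days B and C.

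The largest decrease was in KRT6A, a keratin of stressed and wound-edge epithelium. Its level was 1.38, 1.04, 1.54 and 0.466 CPM on day A and 10.7 to 29.9 CPM with a median of 16.4 on the other days, a fall of 4.10 on the log2 scale (SE 0.30, adjusted p = 1e-06). KRT6A also stood at 0.336 CPM in the E7 library of day A against 3.16 and 2.18 on days B and C. Its reads can be shared with the near-identical KRT6B and KRT6C, which makes the level of this single gene uncertain. TAGLN, MYL9 and ACTB fell as well. TAGLN, the actin-binding transgelin, was at 10.9, 7.48, 8.64 and 8.30 CPM against 18.9 to 34.7 CPM with a median of 23.9, a fall of 1.59 (SE 0.11, adjusted p = 8.31e-07). MYL9, a regulatory light chain of myosin II, fell by 0.996 (SE 0.10, adjusted p = 8.56e-06), and ACTB, cytoplasmic actin, fell by 0.42 from 3086 ± 312 to 2377 ± 116 CPM (mean ± SD, n = 8 and 4, SE 0.07, adjusted p = 0.000333). For all 3 genes the 4 day A libraries lay below the other 8. That was required of TAGLN and MYL9, which were chosen for their size, and not of ACTB. CPA4, a secreted carboxypeptidase, was at 6.24, 5.95, 9.88 and 11.3 CPM against 16.6 to 44.2 CPM with a median of 24.4 (fall of 1.71, SE 0.18, adjusted p = 1.55e-05). Its 4 day A libraries also lay below all the others, as the choice by size required. The DNA helicase PIF1 (-0.99), the adaptor DOK3 (-1.07), the G protein subunit GNB3 (-1.04) and RTEL1-TNFRSF6B (-1.13), whose reads overlap those of its component genes, completed the group.

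Metallothioneins, small cysteine-rich proteins that bind zinc and copper, gave 3 of the largest decreases. MT2A was at 92.7, 76.1, 69.1 and 78.1 CPM in clones 1 to 4 on day A and at 103 to 221 CPM with a median of 175 on days B and C (fall of 1.09, SE 0.14, adjusted p = 5.08e-05). MT1E was at 39.4, 25.5, 32.2 and 45.97 CPM against 66.1 to 168 CPM with a median of 99.5 (fall of 1.53, SE 0.20, adjusted p = 5.96e-05), and MT1X at 3.99, 2.98, 2.78 and 4.01 CPM against 4.22 to 10.4 CPM with a median of 7.01 (fall of 1.09, SE 0.17, adjusted p = 0.000174). None of the 3 overlapped between the groups, as the choice by size required. Clone 4, whose levels on days B and C were the lowest of the 4 clones for MT2A, showed the smallest fall in each. Reads may be shared between these near-identical genes. Of 8 tested genes of metallothioneins and zinc handling 1 rose and 4 fell, where 21.8% of all tested genes rose and 20.4% fell. The list median was -0.21, and the 1 that rose was SLC39A10, a zinc importer (0.68, SE 0.10, adjusted p = 0.000103). Metallothionein genes are known to be switched on by zinc through the factor MTF1, which binds metal response elements. The 250 bases before the start of MT2A (chr16:56608334-56608583, plus strand) and MT1X (chr16:56682220-56682469, plus strand), from RefSeq on GRCh38.p14, are shown because both genes fell together. Capitals mark matches on either strand to the core letters TGCGCNC or TGCACNC, where N is any base.
MT2A: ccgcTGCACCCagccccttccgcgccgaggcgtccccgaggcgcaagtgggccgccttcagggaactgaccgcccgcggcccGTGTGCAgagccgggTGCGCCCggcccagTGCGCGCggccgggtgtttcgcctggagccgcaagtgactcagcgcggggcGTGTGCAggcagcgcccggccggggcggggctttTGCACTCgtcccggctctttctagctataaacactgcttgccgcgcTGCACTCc
MT1X: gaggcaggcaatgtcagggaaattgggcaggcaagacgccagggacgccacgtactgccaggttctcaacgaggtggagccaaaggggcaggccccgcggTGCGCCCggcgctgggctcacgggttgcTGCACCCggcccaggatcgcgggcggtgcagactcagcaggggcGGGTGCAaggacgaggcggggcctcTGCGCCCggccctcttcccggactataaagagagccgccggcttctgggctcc

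MT2A held 7 matches and MT1X 4. Of the 10854 tested genes with a promoter of this length in the table, 33.6% held at least 1, as did 24.8% of all 27195 promoters.

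**Figure D3:**
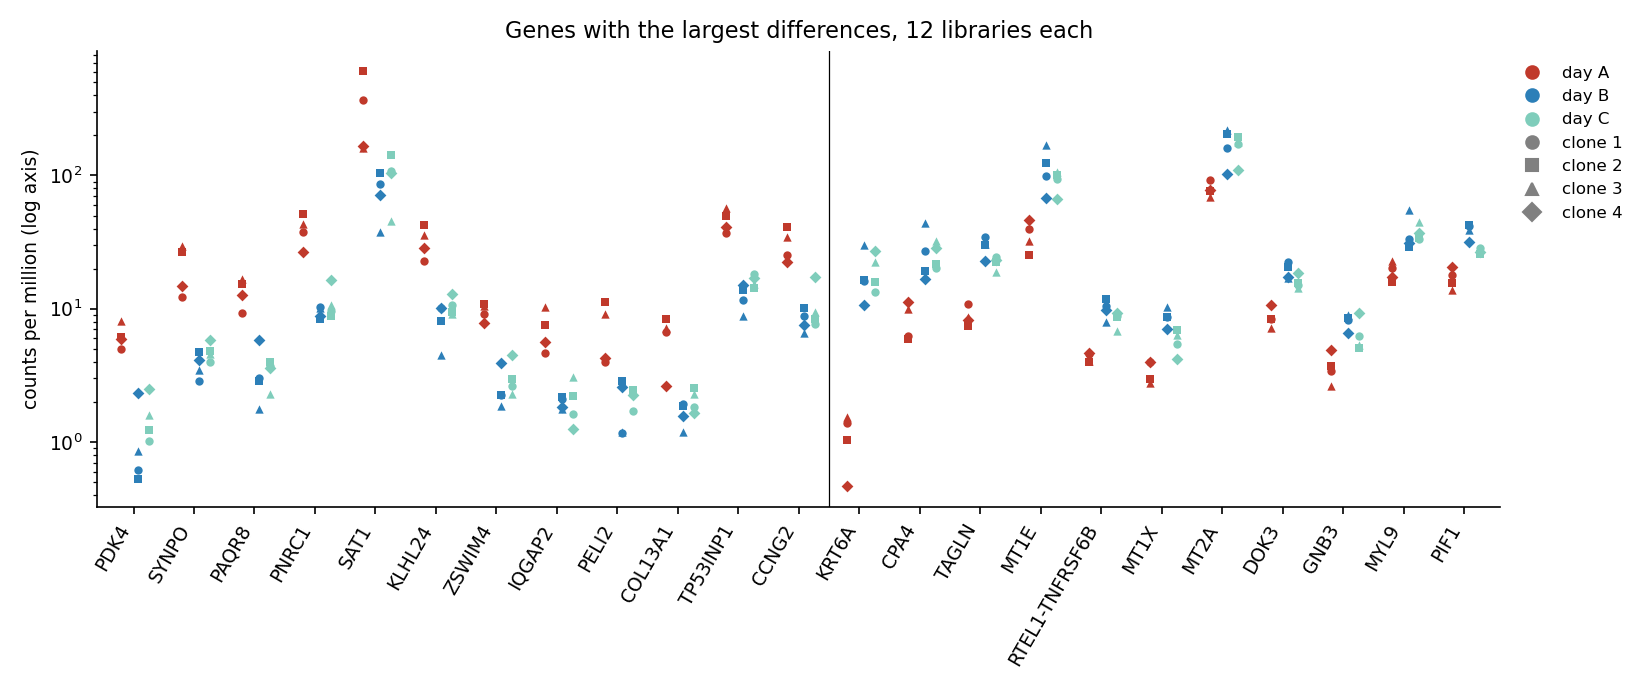
CPM on a log axis for the 12 genes with the largest increase (left of the line) and 11 of those with the largest decrease (right) among genes that passed, reached 5 CPM and did not overlap. Each point is 1 library, coloured by day with a symbol for each clone. The day A points lie beyond those of both other days for each gene, farthest for KRT6A, at 0.466 to 1.54 CPM against 10.7 to 29.9.

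Genes of mitosis were lower on day A almost throughout. Of 44 tested genes of the G2 and M phases 39 fell and none rose, where 20.4% of all tested genes fell, and the list median was -0.51 against 0.02 for all genes. UBE2C, the ubiquitin-conjugating enzyme of the anaphase-promoting complex, was at 119, 90.9, 86.8 and 108 CPM on day A against 139.5 to 210.0 CPM with a median of 169.7 (fall of 0.81, SE 0.11, adjusted p = 8.98e-05). PLK1, the kinase that drives entry into and passage through mitosis, was at 185, 137, 130.4 and 175 CPM against 204 to 310.4 CPM with a median of 248 (fall of 0.76, SE 0.11, adjusted p = 0.000115). CDCA3, a trigger of mitotic entry, fell by 0.75 (SE 0.10, adjusted p = 6.22e-05), and KIF23, a kinesin of the central spindle, by 0.68 (SE 0.08, adjusted p = 1.97e-05). In UBE2C, PLK1 and CDCA3 every day A library lay below all 8 others, and each fell more in clones 2 and 3 than in clones 1 and 4. MKI67, the proliferation marker Ki-67, fell by 0.39 (SE 0.09, adjusted p = 0.00331), but with overlap: it was at 704, 965, 879.7 and 989.6 CPM on day A and 952 to 1245 CPM with a median of 1144 otherwise. Its difference was -0.74 in clone 1 and -0.06 in clone 4. The list median by clone was -0.39, -0.59, -0.74 and -0.22 in clones 1 to 4. Cell cycle genes of this phase are known to be repressed in resting cells by the DREAM complex through a cell cycle homology region, TTTGAA, and activated through CCAAT boxes bound by NF-Y. The 250 bases before the start of PLK1 (chr16:23678639-23678888, plus strand), CDCA3 (chr12:6851287-6851536, minus strand) and KIF23 (chr15:69414099-69414348, plus strand), the 3 members with the largest falls that have an entry in the RefSeq table (GRCh38.p14), follow. Capitals mark TTTGAA and CCAAT on either strand.
PLK1: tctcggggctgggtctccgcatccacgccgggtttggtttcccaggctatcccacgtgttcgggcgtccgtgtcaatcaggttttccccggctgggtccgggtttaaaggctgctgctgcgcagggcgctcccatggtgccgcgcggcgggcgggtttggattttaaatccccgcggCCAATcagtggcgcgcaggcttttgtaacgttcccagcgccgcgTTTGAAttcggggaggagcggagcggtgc
CDCA3: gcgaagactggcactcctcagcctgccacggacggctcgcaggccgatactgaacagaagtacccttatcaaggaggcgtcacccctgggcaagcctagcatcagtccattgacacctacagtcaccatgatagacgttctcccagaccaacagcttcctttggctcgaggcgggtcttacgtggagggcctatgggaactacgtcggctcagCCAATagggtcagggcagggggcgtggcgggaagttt
KIF23: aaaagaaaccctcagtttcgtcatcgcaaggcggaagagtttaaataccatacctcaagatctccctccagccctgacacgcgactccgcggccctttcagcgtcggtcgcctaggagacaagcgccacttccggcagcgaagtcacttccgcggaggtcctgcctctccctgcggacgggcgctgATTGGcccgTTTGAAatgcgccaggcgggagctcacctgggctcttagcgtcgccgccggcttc

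PLK1 and KIF23 each held 1 match to TTTGAA and 1 to CCAAT, and CDCA3 held 1 to CCAAT. Over the 37 list members with a promoter, 51.4% held TTTGAA, against 8.23% of the 10854 tested genes with one, and 75.7% held CCAAT, against 35.1%. In all 27195 promoters of the table the shares were 13.6% and 33.0%. Among all genes called lower on day A they were 10.1% and 37.2%, and among those called higher 7.24% and 34.8%. Replication genes, most of which also fell, held TTTGAA in 2.44% and CCAAT in 53.7%. These are matches of letters, with no measure of binding, and whether either motif takes part in the day difference was not tested.

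Replication genes moved with those of mitosis. Of 49 tested genes of DNA replication and E2F targets 40 fell and none rose (median -0.34), where 20.4% of all tested genes fell and 21.8% rose. RRM2, the regulated subunit of ribonucleotide reductase, was at 478, 451, 398 and 406 CPM against 540.4 to 745 CPM with a median of 690.0 (fall of 0.68, SE 0.07, adjusted p = 8.56e-06). E2F8, a late E2F factor, fell by 0.66 and ORC1, a subunit of the origin recognition complex, by 0.64 (adjusted p of at most 9.71e-05). Without clone 2 the number of falling members was 26. Replication-dependent histone mRNAs normally end without a poly(A) tail and are scarce in poly(A) libraries. Counts of these genes therefore need not follow the mRNA without a tail. Of the 15 genes in the list 8 were tested, and of these 4 rose and none fell. H2AC6 was at 4.43, 5.40, 11.6 and 6.43 CPM against 2.03 to 4.57 CPM with a median of 2.49, a rise of 1.28 (SE 0.21, adjusted p = 0.00027), with its lowest day A library below the highest of the others. H2BC5 rose by 0.96 and H2BC12 by 0.56 (adjusted p of at most 0.000904). The summed histone share was 0.00326% to 0.00452% of gene counts on day A and 0.00203% to 0.00292% on the other days (exact permutation p = 0.0123, adjusted 0.0278). Histone copies are near-identical, and their single levels are uncertain.

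Genes that accompany cell cycle exit were higher. Of 20 tested 13 rose and 1 fell (median 0.46), where 21.8% of all tested genes rose. Besides CCNG2, PDCD4, an inhibitor of translation initiation, was at 38.5, 48.3, 50.4 and 39.4 CPM on day A against 12.8 to 22.7 CPM with a median of 13.9 (rise of 1.52, SE 0.11, adjusted p = 1.16e-06). MXD4, a partner of MAX that opposes MYC at shared sites, was at 38.6, 39.04, 67.5 and 36.3 CPM against 9.77 to 17.9 CPM with a median of 14.4 (rise of 1.63, SE 0.11, adjusted p = 8.31e-07). Neither overlapped between the groups, and clone 3 was the highest for both on day A. CDKN1A, the p21 inhibitor of cyclin-dependent kinases, was at 206, 209, 194 and 121 CPM against 85.6 to 109 CPM with a median of 100.3 (rise of 0.83, SE 0.10, adjusted p = 2.38e-05), with clone 4 well below clones 1 to 3 on day A. The 1 member that fell was E2F4, the E2F of the DREAM complex (-0.38, SE 0.08, adjusted p = 0.00118).

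**Figure D4:**
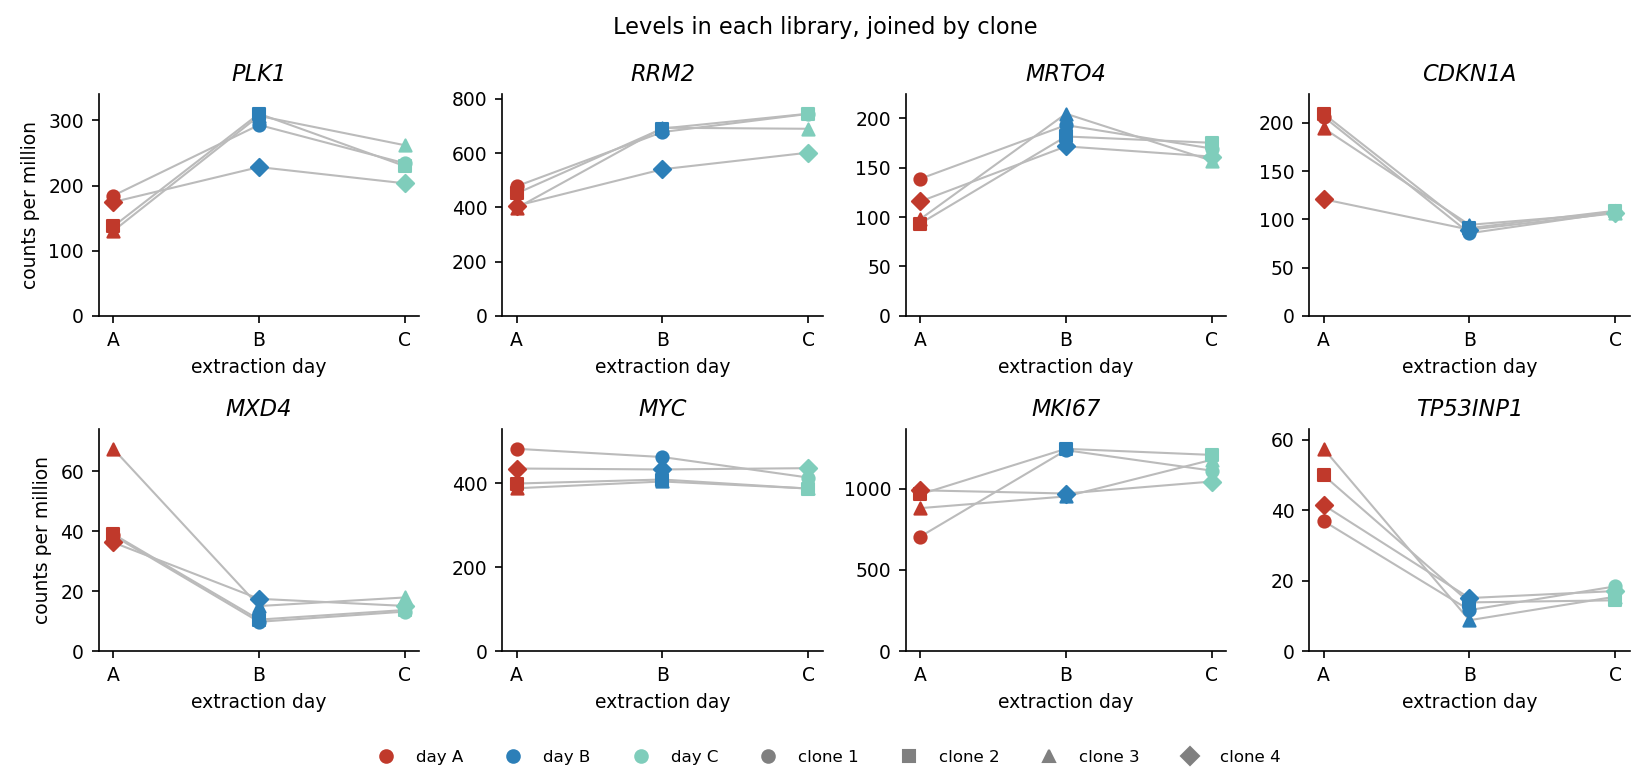
Level in CPM of 8 genes in each of the 12 libraries by extraction day, with a line joining the 3 libraries of a clone. PLK1, RRM2 and MRTO4 lie lower on day A and CDKN1A, MXD4 and TP53INP1 higher, without overlap, while MYC lies between 387 and 482 CPM in all 12 libraries and MKI67 overlaps between days.

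Ribosome assembly had the largest share of members called among the 40 lists. Of 59 tested genes of ribosome biogenesis 55 fell and none rose, where 20.4% of all tested genes fell and 21.8% rose. The list median was -0.42 and the clone medians -0.30, -0.59, -0.56 and -0.27. MRTO4, an assembly factor of the large subunit, was at 139, 93.5, 97.8 and 116 CPM on day A against 157 to 204 CPM with a median of 173 (fall of 0.72, SE 0.09, adjusted p = 5.03e-05). NIP7, which acts in pre-ribosomal RNA processing, fell by 0.67 (SE 0.08, adjusted p = 3.16e-05). UTP20, a scaffold of the small-subunit processome, was at 69.6, 78.4, 73.2 and 112 CPM against 106 to 143 CPM with a median of 127 (fall of 0.67, SE 0.10, adjusted p = 0.000126), and its clone 4 library overlapped the other days. Of 23 tested genes of nucleotide and polyamine synthesis 18 fell and none rose (median -0.28). CTPS1, which makes CTP, fell by 0.69, PFAS, an enzyme of purine synthesis, by 0.68 and SRM, the spermidine synthase, by 0.67 (adjusted p of at most 0.000126), each without overlap. The fall of SRM and the rise of SAT1 concern the making and the breakdown of polyamines. MYC, the factor to which many of these genes respond, did not pass: it was at 482, 399.5, 388 and 435 CPM on day A and 387 to 463 CPM with a median of 411 otherwise, a difference of -0.02 (SE 0.06, adjusted p = 0.833). Of 11 tested genes of MYC and its partners 4 rose and 2 fell, MXD4 by far the most.

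The ribosomal proteins themselves did not fall with their assembly factors. Of 76 tested 11 rose, fewer than the 21.8% of all genes, and none fell (median 0.12). RPL13A rose by 0.43 (SE 0.08, adjusted p = 0.000557), RPL3 by 0.38 and RPL12 by 0.35 (adjusted p of at most 0.00213), all 3 without overlap. The list median was 0.46 in clone 1 and 0.05, -0.04 and -0.01 in clones 2 to 4, so that it rested on clone 1. Without the day A library of clone 1 the list median was 0.0019 and 3 members fell. The number of risers was 4 without clone 1, 3 without clone 2 and 7 without clone 4. It was 5 or 6 without any single library of clones 1 and 2, 5 without the day C library of clone 3, 7 without the day B library of clone 4 and 31 without the day B library of clone 3. With upper-quartile factors 25 rose, and with total counts 22. Reads shared with processed pseudogenes make single ribosomal protein genes uncertain. Of 27 tested factors of translation initiation and elongation 5 rose and 11 fell. EEF1A1, the elongation factor whose mRNA belongs to the growth-regulated TOP class together with the ribosomal proteins, rose by 0.35 (SE 0.06, adjusted p = 0.000315), while EIF4G1, the scaffold of cap-dependent initiation, fell by 0.37 (SE 0.06, adjusted p = 0.000205).

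Most proteasome subunits and most genes of the cytosolic heat shock response were lower, and so were 14 of 30 splicing factors and hnRNPs, where 20.4% of all tested genes fell. Of 30 tested proteasome subunits 21 fell and none rose (median -0.29). PSMD11, a regulatory subunit that limits proteasome assembly, was at 218, 193, 179 and 201 CPM against 269 to 304 CPM with a median of 289.7 (fall of 0.59, SE 0.06, adjusted p = 1.61e-05). The regulatory subunits PSMC4 and PSMD12 fell by 0.51 and 0.50 (adjusted p of at most 0.00013), and none of the 3 overlapped. The list median was -0.02 in clone 1 and -0.34, -0.49 and -0.29 in clones 2 to 4. Without clone 2, 13 subunits fell, and without the day A library of clone 1, 28. Of 24 tested genes of the cytosolic heat shock response 1 rose and 14 fell (median -0.29). The co-chaperone DNAJA1 was at 359.7, 277, 271 and 354 CPM against 385 to 475 CPM with a median of 432 (fall of 0.49, SE 0.09, adjusted p = 0.000615), with clones 2 and 3 lower than clones 1 and 4. HSPA1B, an inducible HSP70 gene, fell by 0.55 (SE 0.13, adjusted p = 0.00302), and it shares reads with HSPA1A. The small heat shock protein HSPB1 was the 1 that rose (0.29, SE 0.09, adjusted p = 0.0176). Without the day A library of clone 1 its difference was 0.142 and did not pass (adjusted p = 0.0845), and it did not pass without clone 1 (0.142), clone 2 (0.29) or the day A library of clone 2 (0.283) either. Without clone 2 the heat shock list had 9 falling members. Of 30 tested splicing factors and hnRNPs 2 rose and 14 fell (median -0.15), and 9 fell without the day A library of clone 2 or of clone 3. HNRNPH1 was at 482, 443, 430.3 and 624 CPM against 767 to 872 CPM with a median of 828 (fall of 0.79, SE 0.08, adjusted p = 8.56e-06), HNRNPDL fell by 0.75 and U2AF2, which recognises the 3′ splice site, by 0.61 (adjusted p of at most 2.2e-05). MALAT1, a nuclear long noncoding RNA, was at 73.6, 87.02, 77.6 and 102 CPM against 120.0 to 154 CPM with a median of 126 and fell by 0.67 (SE 0.09, adjusted p = 4.83e-05), while of 17 nuclear-retained or intron-rich RNAs tested 5 fell and none rose.

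Most mRNAs of the mitochondrial genome were higher on day A, while most proteins of the mitochondrial ribosome were lower. Of 13 mRNAs encoded in mitochondrial DNA 9 rose and 1 fell (median 0.31). MT-ND4, a subunit of complex I, was at 11068, 13517, 14656 and 9751 CPM on day A against 8091 to 9410 CPM with a median of 8663 (rise of 0.43, SE 0.07, adjusted p = 0.000297), without overlap. MT-ND6 rose by 0.38 and MT-CO1 by 0.34 (adjusted p of at most 0.00171), both with overlap. MT-ND1, another subunit of complex I, was the 1 that fell (-0.26, SE 0.07, adjusted p = 0.00484), and it did not pass without clone 2 (-0.189, adjusted p = 0.115) or without the day A library of clone 2 (-0.196, adjusted p = 0.0537). The ribosome that translates these mRNAs is encoded in the nucleus, and of 52 tested proteins of it 36 fell and 1 rose (median -0.27). MRPS23 was at 111, 90.3, 87.4 and 94.9 CPM against 116 to 145 CPM with a median of 125 (fall of 0.43, SE 0.08, adjusted p = 0.0005), and MRPL39 and MRPL15 fell by 0.43 and 0.42 (adjusted p of at most 0.00114). Clone medians for the mitochondrial ribosome were 0.01, -0.37, -0.47 and -0.25. The number that fell was 11 without clone 2, 22 without clone 3, 19 without the day A library of clone 2 and 20 without that of clone 3, while 46 fell without the day A library of clone 1. Of 62 nuclear-encoded subunits of the respiratory chain 7 rose and 1 fell, both below the 21.8% and 20.4% of all tested genes (median 0.08, 0.40 in clone 1 and -0.11 to 0.03 in the other clones). Without the day A library of clone 1, 3 of them rose and 11 fell (median -0.02), without that of clone 2 the number that rose was 4 and without that of clone 3 it was 13.

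Targets of p53 were higher. Of 26 tested 17 rose and 2 fell, where 21.8% of all tested genes rose and 20.4% fell. The list median was 0.32 and the clone medians 0.43, 0.31, 0.43 and 0.24. BBC3, the cell death activator PUMA, was at 36.1, 34.2, 36.9 and 24.4 CPM on day A against 8.40 to 15.7 CPM with a median of 11.96 (rise of 1.43, SE 0.14, adjusted p = 7.17e-06). GDF15, a secreted stress factor, was at 80.1, 78.2, 62.4 and 71.5 CPM against 19.4 to 40.1 CPM with a median of 28.5 (rise of 1.38, SE 0.09, adjusted p = 8.31e-07). Both were without overlap, as was CDKN1A of the same list. TP53INP1, above, did not overlap by the rule that chose it. The exonuclease AEN fell by 0.42 (SE 0.07, adjusted p = 0.000184) without overlap. TIGAR, a phosphatase that slows glycolysis, differed by -0.27 (SE 0.09, adjusted p = 0.02), and it did not pass with upper-quartile factors (-0.202) or without clone 2 (-0.188), clone 3 (-0.266), the day A library of either of those clones (-0.195 and -0.266) or the day B library of clone 2 (-0.246).

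Other lists of stress and supply had members called in both directions, as did all genes tested, of which 21.8% rose and 20.4% fell. Of 33 tested targets of ATF4, the factor of amino acid shortage, 7 rose and 12 fell (median -0.13). ATF5 was at 34.6, 22.7, 29.4 and 35.4 CPM against 39.9 to 73.02 CPM with a median of 49.7 (fall of 0.76, SE 0.12, adjusted p = 0.000163), and STC2 and the amino acid transporter SLC7A5 each fell by 0.59 (adjusted p of at most 0.000109). CTH, which makes cysteine, rose by 0.53 (SE 0.11, adjusted p = 0.00154). PHGDH, the first enzyme of serine synthesis, was at 167, 116, 94.9 and 187 CPM against 66.2 to 141 CPM with a median of 83.4 (0.59, SE 0.16, adjusted p = 0.0089), and it did not pass without the day A library of clone 4 (0.533, adjusted p = 0.0538). DDIT4, an inhibitor of mTORC1 that is also a hypoxia and p53 target, was at 44.8, 87.7, 78.6 and 38.6 CPM against 28.8 to 54.8 CPM with a median of 35.8 (0.64, SE 0.18, adjusted p = 0.00972). Clone 2 decided its call: without clone 2 the difference was 0.32 (adjusted p = 0.139), and without the day A library of that clone 0.314 (adjusted p = 0.119). Among aminoacyl-tRNA synthetases 8 of 20 fell and 1 rose, where 20.4% of all tested genes fell and 21.8% rose. In the unfolded protein response 5 of 25 fell and 2 rose, so that the falling share was that of all genes. Without the day A library of clone 1 the number that fell there was 10, and without that of clone 2 or of clone 3 it was 2. Of 25 genes of NRF2 and oxidative stress 8 rose (32%) and 6 fell (24%), and GCLM, which supports glutathione synthesis, fell by 0.83 (SE 0.07, adjusted p = 2.42e-06). Of 29 hypoxia genes 10 rose and 3 fell (median 0.17), and 5 rose without the day A library of clone 2. NDRG1, a hypoxia and stress gene, was at 163, 284, 187 and 98.4 CPM against 54.3 to 86.8 CPM with a median of 69.2 (rise of 1.33, SE 0.16, adjusted p = 3.38e-05), and BNIP3L, a mitophagy receptor, rose by 0.95 (SE 0.16, adjusted p = 0.000363). Clone 2 was the highest of the 4 in both, and the median of the hypoxia list was 0.61 in clone 2, 0.20 in clone 1, 0.14 in clone 3 and -0.15 in clone 4. Glycolysis had 3 rising and 3 falling genes of 20 (15% each, median 0.02), both below the shares of all genes. The glycolytic enzyme GAPDH was at 3843, 3749, 3416 and 3244 CPM against 3077 to 3630 CPM with a median of 3260 (0.07, SE 0.07, adjusted p = 0.491), which did not pass. Of 11 glucose-responsive targets of MondoA and ChREBP 2 rose and 2 fell (18.2% each). TXNIP, the best known of them, was not analysed here.

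Most genes of cholesterol synthesis were higher, while in fatty acid synthesis and among lysosome genes most members did not pass in that direction. Of 26 tested genes of cholesterol synthesis and LDL uptake 17 rose and 1 fell (median 0.27). TM7SF2, a sterol reductase, was at 20.9, 28.4, 29.6 and 26.7 CPM on day A against 8.22 to 19.4 CPM with a median of 11.8 (rise of 0.997, SE 0.12, adjusted p = 2.92e-05), without overlap. INSIG1, which holds SREBP factors in the endoplasmic reticulum and is itself their target, rose by 0.64 and HSD17B7 by 0.61 (adjusted p of at most 0.000252), both with overlap, while the sterol-regulated membrane protein TMEM97 fell by 0.46 (SE 0.08, adjusted p = 0.000377). In fatty acid synthesis 8 of 22 rose and none fell (median 0.10), where 21.8% of all tested genes rose, and 4 rose without the day A library of clone 2. ACSS2, which makes acetyl-CoA from acetate, was at 43.5, 50.7, 42.9 and 40.8 CPM against 23.8 to 33.7 CPM with a median of 28.4 (rise of 0.63, SE 0.08, adjusted p = 3.37e-05), and the desaturase SCD rose by 0.49 (SE 0.08, adjusted p = 0.000251). Among lysosome and autophagy genes 17 of 39 rose and 5 fell (median 0.11). In clone 4 the medians of these lists were -0.01 and -0.04. WIPI1, a phosphoinositide-binding autophagy protein, was at 14.4, 15.1, 14.2 and 13.7 CPM against 7.05 to 9.53 CPM with a median of 8.79 (rise of 0.73, SE 0.09, adjusted p = 5.26e-05). GABARAPL1, which is joined to autophagosome membranes, rose by 0.65 and the protease CTSB by 0.57 (adjusted p of at most 7.96e-05), and the galactosidase GLA fell by 0.53 (SE 0.08, adjusted p = 0.00019). These 4 were without overlap.

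Several signalling outputs were higher on day A. Of 25 tested immediate early genes 14 rose and 2 fell (median 0.49), where 21.8% of all tested genes rose and 20.4% fell. EGR1, a transcription factor induced within minutes by growth factors and stress, was at 58.4, 76.5, 29.6 and 52.03 CPM on day A against 15.1 to 27.2 CPM with a median of 21 (rise of 1.24, SE 0.16, adjusted p = 5.59e-05), with clone 3 nearest to the other days. BTG2, an antiproliferative early gene, rose by 0.90 and IER3 by 0.77, while the kinase SIK1 fell by 0.53 (adjusted p of at most 0.000169). Of 25 genes of MAPK feedback and output 15 rose and 4 fell (median 0.23). DUSP6, the phosphatase that switches off ERK, was at 117, 185, 79.8 and 114 CPM against 38.8 to 84.7 CPM with a median of 64.7 (rise of 0.95, SE 0.07, adjusted p = 1.16e-06). The groups overlapped through clone 3, whose levels were the lowest on each day, although day A was above both other days in each clone. SPRY4, an inhibitor of receptor kinase signalling, rose by 0.81, while DUSP7 fell by 0.55, the AP-1 factor FOSL1 by 0.52 and cyclin D1, CCND1, by 0.45 (adjusted p of at most 0.000135), each without overlap. In the Wnt list 9 of 16 rose and none fell (median 0.24). NOTUM, a secreted enzyme that inactivates Wnt ligands, was at 11.97, 15.1, 16.03 and 11.003 CPM against 3.80 to 8.31 CPM with a median of 5.15 (rise of 1.27, SE 0.16, adjusted p = 3.65e-05), the crypt factor SOX9 rose by 0.98 and the receptor EPHB3 by 0.60 (adjusted p of at most 0.000428).

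Of 23 TGF-beta induced genes 14 rose and 4 fell (median 0.27), where 21.8% of all tested genes rose and 20.4% fell. Without the day A library of clone 2 the number that rose was 9. As background, HCT116 is known to lack a working type 2 TGF-beta receptor. The collagen receptor ITGA2 was at 82.4, 171, 164 and 147 CPM against 36.8 to 67.9 CPM with a median of 56.3 (rise of 1.30, SE 0.12, adjusted p = 7.39e-06), and the inhibitory SMAD6 and the TGF-beta binding protein LTBP1 rose by 0.95 and 0.92 (adjusted p of at most 8.4e-05). TAGLN, above, was among those that fell. SMAD7, the second inhibitory SMAD, was at 8.998, 9.55, 12.2 and 11.2 CPM against 5.88 to 12.7 CPM with a median of 7.98 (0.32, SE 0.12, adjusted p = 0.0358), and its difference of 0.24 to 0.324 did not pass without any one of clones 1 to 3, without the day A library of clone 2 or 3, without 5 other single libraries, without the clone term (0.319) or in DESeq2 (0.322). Of 26 interferon response genes 15 rose and 2 fell (median 0.27). IFIT1, an antiviral protein that binds RNA caps, was at 8.13, 9.21, 9.37 and 5.69 CPM against 2.64 to 5.67 CPM with a median of 3.94 (rise of 0.91, SE 0.14, adjusted p = 0.000183), and IFI6 and HERC6 rose by 0.73 and 0.68 (adjusted p of at most 0.000369), these 2 with overlap. Without clone 2 the number of rising interferon genes was 9. In antigen presentation by MHC class I 8 of 16 rose and 1 fell, with 3 rising without the day A library of clone 2. Of 17 NF-kB targets and chemokines 3 rose and 3 fell (17.6% each), both below the shares of all tested genes. The circadian clock list had 9 of 15 rising and none falling (median 0.33). Its median was 0.14 for day A minus day B and 0.59 for day A minus day C. Without the day A library of clone 2 the number that rose was 6. CRY1, a repressor of the clock, was at 40.6, 46.9, 42.9 and 37.8 CPM against 22.4 to 28.4 CPM with a median of 27.3 (rise of 0.65, SE 0.08, adjusted p = 2.38e-05), and DBP and PER3, output and repressor of the clock, rose by 0.93 and 0.74 (adjusted p of at most 0.000801), with overlap in both. The hour of harvest was not found in the labels.

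Most junction genes that passed were higher on day A. Of 37 tested epithelial junction genes and keratins 13 rose and 5 fell (median 0.15). TJP3, the tight junction scaffold ZO-3, was at 48.3, 54.1, 61.6 and 50.9 CPM on day A against 11.5 to 26.2 CPM with a median of 17.4 (rise of 1.58, SE 0.12, adjusted p = 1.22e-06). The tight junction claudins CLDN4 and CLDN3 rose by 0.96 and 0.91 (adjusted p of at most 9.25e-05), while KRT8, the main simple epithelial keratin, fell by 0.49 from 2849 ± 382 to 2097 ± 222 CPM (mean ± SD, n = 8 and 4, SE 0.08, adjusted p = 0.000172), all without overlap. Targets of YAP and TEAD, which respond to cell density, gave no common direction: of 25 tested 4 rose and 7 fell, against 21.8% and 20.4% of all genes, with clone medians of -0.27, 0.06, 0.03 and 0.02. Of 10 tested genes of intestinal identity 5 rose and none fell, and 18 of the 28 in that list were too low to test. Zinc finger transcription factor genes (1 rising and 3 falling of 30) stood below the shares of all genes.

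Some members of the lists of other cell types were at 0 in all 12 libraries. PTPRC, CD3D and FCGR3A of leukocytes, DCN, LUM and COL1A2 of stromal cells, GAP43 and NEFM of neurons and CRABP1, a marker of HEK293 cells, had 0 counts throughout. Other members of the same lists were expressed. The highest library was at 211 CPM for COL6A1 (mesenchymal), 89.4 for DPYSL3 and 84.5 for HOXA9 (both HEK293) and 75.8 for SYT1 (neuronal). High enough to test were 8 of 22 mesenchymal, 4 of 7 neuronal and 6 of 11 HEK293 markers. Of leukocyte markers 2 of 14 and of endothelial markers 1 of 7 were tested. The genes at 0 thus do not stand for their whole lists. The summed level of 14 leukocyte markers was 2.98 to 5.26 CPM on day A and 2.48 to 3.75 CPM on the other days, and none of the 2 tested passed, nor did the 1 endothelial marker tested. Of the tested mesenchymal, neuronal and HEK293 markers 3 of 8, 2 of 4 and 1 of 6 rose, and 2 mesenchymal genes fell, TAGLN among them. Of all tested genes 21.8% rose and 20.4% fell, and these marker lists are too short to set apart from those shares. The epithelial genes EPCAM, KRT18 and KRT19 reached 388, 1167 and 1064 CPM, while the differentiation markers CDX1, VIL1, CDH17, LGALS4, CEACAM5 and GPA33 stayed below 1 CPM. Of 8 tested colorectal markers 3 rose and 1 fell.

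**Figure D5:**
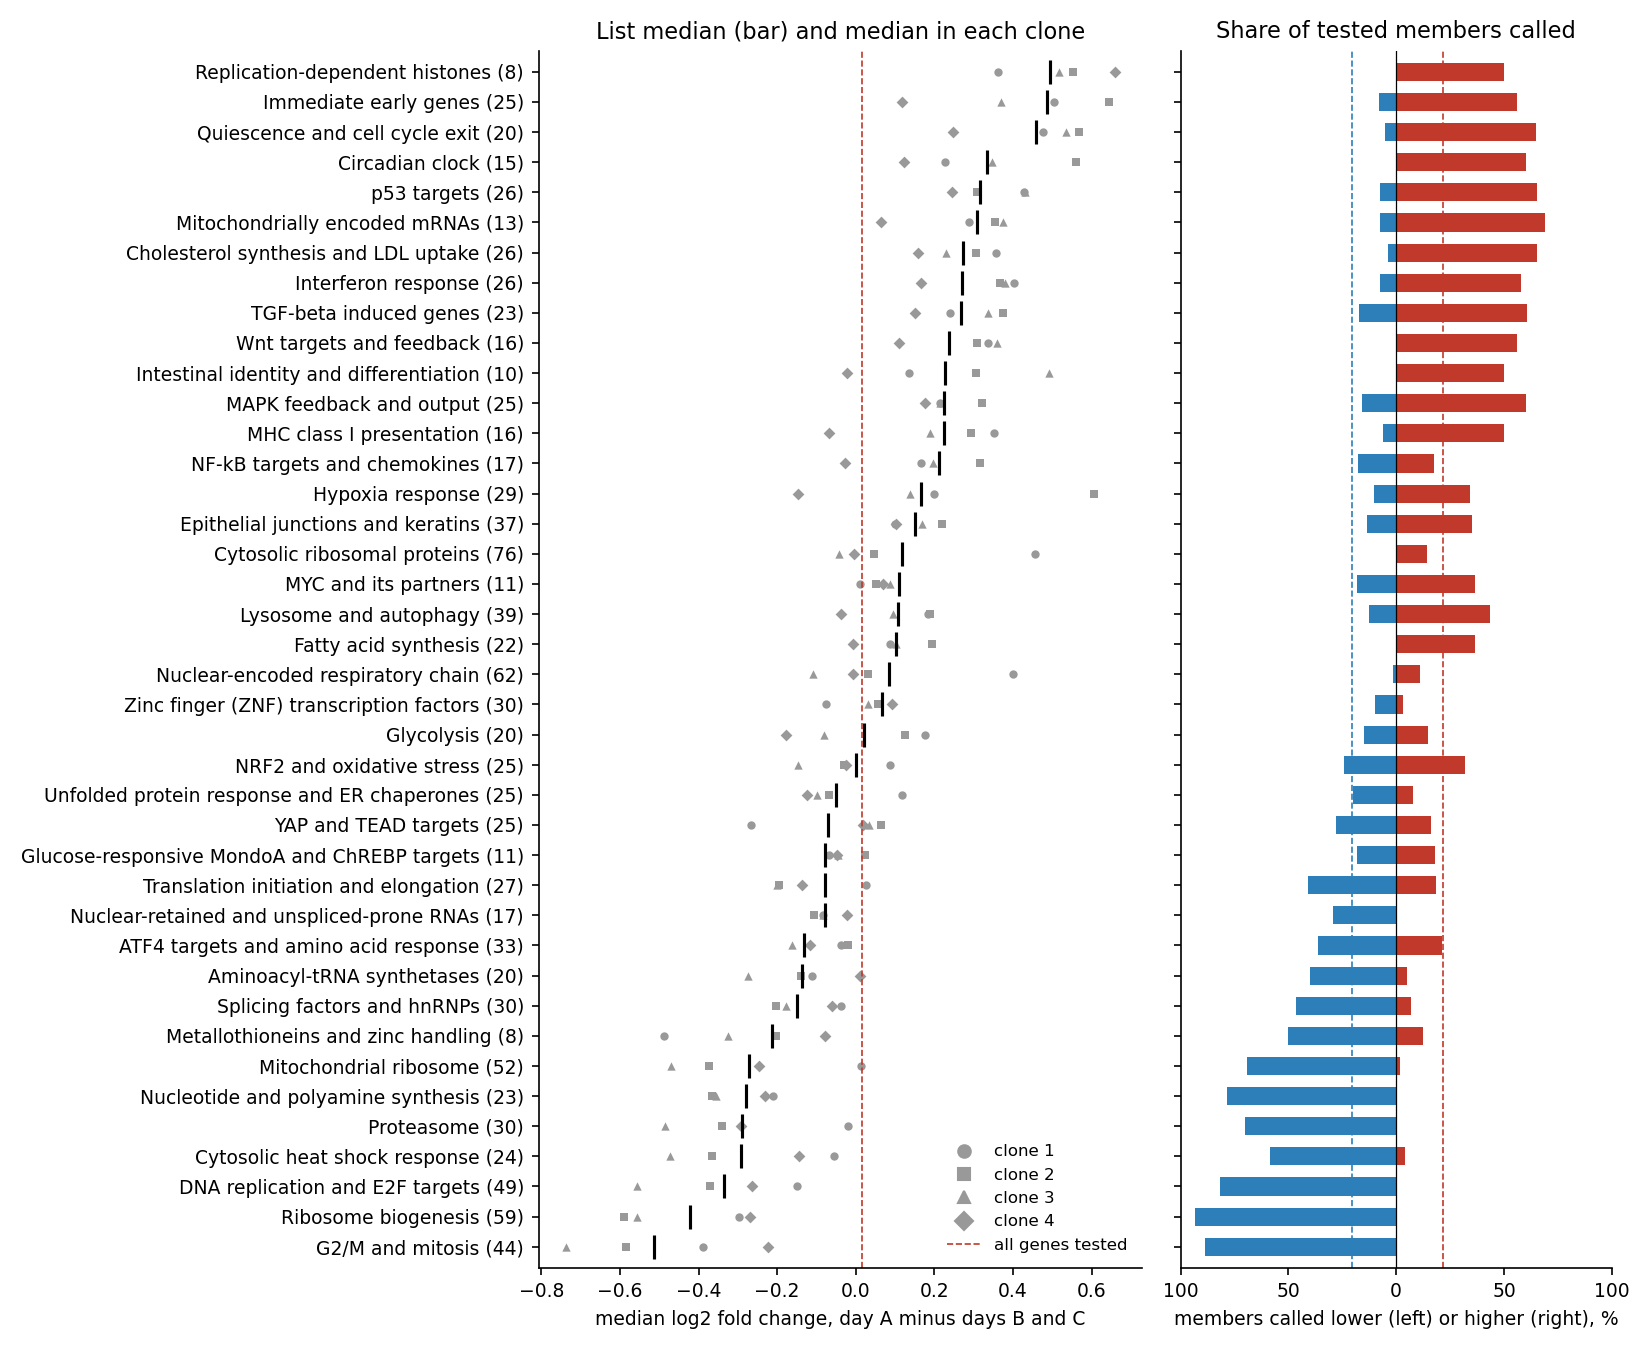
Left, median log2 fold change of day A minus days B and C over the tested members of 40 gene lists (bar, number tested in brackets) with the median in each clone (grey symbols) and that of all genes tested (dashed line at 0.02). Right, percent of members called higher (red) or lower (blue), with the shares of all genes tested, 21.8% and 20.4%, as dashed lines. Mitosis, ribosome biogenesis and replication stand at the lower end, and histones, immediate early genes and cell cycle exit at the upper end.

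In each clone most called genes had the sign of the whole comparison, and the sizes differed. Of the 3271 higher genes 3093, 3265, 3255 and 3057 were higher in clones 1 to 4, and of the 3060 lower genes 2807, 3057, 3054 and 2979 were lower. Over the 3271 higher genes the median difference was 0.49, 0.57, 0.62 and 0.30 in clones 1 to 4, and over the 3060 lower genes -0.27, -0.42, -0.43 and -0.24. Since these genes were called from the same libraries, the tallies and medians are a description. The medians of 24 of the 40 lists were larger in absolute size in each of clones 1 to 3 than in clone 4. Some list medians changed sign between clones: the hypoxia list had 0.61 in clone 2 and -0.15 in clone 4, glycolysis 0.18 in clone 1 and -0.18 in clone 4, and MHC class I 0.35 in clone 1 and -0.07 in clone 4. In its relation to gene length clone 1 had the opposite sign to the others. Across 12512 protein-coding genes with a known length, Spearman's rho between gene length and the day difference was -0.19 in clone 1 and 0.18, 0.26 and 0.26 in clones 2 to 4, and for day B minus day C it was -0.32. These rho values are across genes of the same libraries and carry no p. In clone 1 the genes below the lowest quartile of length had a median of 0.15 and those above the highest -0.08, and in clone 3 the medians were -0.10 and 0.20. Long noncoding RNAs rose in 149 of 783 and fell in 54, and protein-coding genes rose in 2916 and fell in 2856 of 12512. Of all tested genes 21.8% rose and 20.4% fell, and long noncoding RNAs stood below both shares. The kinds of gene were not matched for level. Whether gene length takes part in the day difference was not tested.

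Days B and C, compared in the same fit, differed in 5 genes (0.0334% of 14988) at the same threshold, 4 higher on B (0.0267%) and 1 lower (0.00667%), with 1900 (12.7%) at an unadjusted p below 0.05, against 7481 (49.9%) for day A. SAMD11 was lower on day B, at 3.02, 3.60, 5.26 and 3.49 CPM in clones 1 to 4 against 5.57, 8.04, 12.7 and 5.39 on day C (log2 difference -1.004, SE 0.16, adjusted p = 0.0426), and in each clone it was highest on day A. The secreted regulator FJX1 was higher on day B, at 34.02, 33.4, 35.5 and 25.3 CPM against 20.2, 19.2, 23.8 and 16.9 (0.69, SE 0.10, adjusted p = 0.0301). The splicing factor SRSF2 was at 366, 396, 367 and 371 CPM on day B against 271, 260.1, 245 and 225 on day C (0.60, SE 0.09, adjusted p = 0.0301) and 283 to 375 CPM on day A. The noncoding RNA LINC00641 (0.59) and ENSG00000264112.1 (0.47) were also higher on day B. These calls were fragile. No gene passed without clone 2, without clone 4, or without any one of the 4 day C libraries, the day B library of clone 2 or the day A library of clone 4. In contrast 107 passed without clone 1, 279 without the day A library of clone 1 and 62 in DESeq2. Of the 40 lists, 38 had no member called between B and C. Taken against each other day alone, day A had 2914 higher and 2859 lower genes against B (19.4% and 19.1%), and 2490 and 2341 against C (16.6% and 15.6%). Both comparisons share the day A libraries. Without clone 2 the counts were 1498 and 1190 against B, and 1081 and 820 against C. Without clone 3 those against B were 1940 and 1816. PLK1 had a mean of 285 CPM on day B and 232 on day C, against 157 on day A. The means of MT2A were 172 and 164 CPM against 79.03.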

How the data were processed

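RNA of 12 control libraries was analysed, with 6 libraries of deletion clones read beside them. The authors deposited 1 table of raw read counts per gene and library, in whole numbers that were not normalized, per the files' values. The submitters' processing notes name the build hg19 and the tools HTSeq 0.6.1, TopHat2, Partek 3, bedtools, BWA 0.6.2, bcl2fastq and CASAVA. Their order and use per assay, and the strand setting, are not stated there, so reads of overlapping or antisense genes cannot be told apart. Each table held 57820 genes, of which 39538 were given a symbol, and 5 summary lines, which stayed out of library sizes and tests. Reads outside genes were 7.78% to 14.3% of the control libraries' counted reads.

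Genes were kept by filterByExpr with a minimum count of 10, which left 14988. They were tested with edgeR 4.0.16 (R 4.3.3) by glmQLFit and glmQLFTest, 2-sided, with TMM factors, a day term of 3 levels and a clone term, and Benjamini-Hochberg adjustment over all genes tested. Fold changes are edgeR's log2 values for day A minus the mean of days B and C. CPM are counts divided by the library's total gene counts, without TMM factors, and log2 CPM for the principal components used a prior count of 2. DESeq2 1.42.0 was an alternative. Shares of libraries were compared by exact permutation within clones (Python 3.11.15, scipy 1.17.1). The clone labels were taken to pair the libraries. Deviations from day means correlated at -0.06 to 0.50 within clones and -0.36 to 0.25 between clones, ranges that overlap. Within clones 2 to 4 every value was at least 0.285, above the highest between clones, 0.247. In clone 1 the values were -0.06, 0.19 and 0.28. Taking out the day mean ties the values between clones to those within clones, and the pairing itself was not tested. The day A library of clone 1 correlated at -0.06 with its own day B library and at 0.21 with that of clone 3.

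Members and the 46 gene lists were chosen with earlier results of these data known, and the lists are described by counts and medians without a test. Named genes were up to 12 per direction with the largest change among those that passed, averaged 5 CPM or more in the higher days and did not overlap, up to 3 passing members per direction of each list by size, genes that passed and did not overlap between B and C, and MYC, SMAD7, TXNIP, MKI67, CDKN1A, MALAT1, GAPDH and ACTB. Of these, 1 gene chosen for the size of its decrease is not reported here. The scripts were tested on simulated data with known changes. Depth was 9871667 to 14445320 gene counts per library.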

Additional observations from a re-analysis of the deposited data

Results flagged for a closer look

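For each named gene and each library measure, the 4 clones were searched on each day for a library that lay far from the other 3. The search used Dixon's 95% criterion on the gap over the whole range. Of 402 groups of 4 libraries 23 had such a library, and chance flags about 1 in 20 groups. On day A clone 2 stood apart in SIK1 at 21.7 CPM against 26.2 to 26.6, SOX9 at 118 CPM against 83.5 to 85.8 and INSIG2 at 38.1 CPM against 20.98 to 22.7 in the other 3 clones. On day A clone 3 stood apart in MXD4 at 67.5 CPM against 36.3 to 39.04 and PER3 at 6.51 CPM against 10.2 to 10.9 in the other 3 clones. On day A clone 4 stood apart in CDKN1A at 121 CPM against 194 to 209 in the other 3 clones. On day B clone 2 stood apart in SRSF2 at 396 CPM against 366 to 371 in the other 3 clones. On day B clone 3 stood apart in MYL9 at 54.7 CPM against 29.3 to 33.5, ACTB at 3579 CPM against 2752 to 2893, GAPDH at 3630 CPM against 3251 to 3260, MRPS23 at 145 CPM against 127 to 128 and ATF5 at 73.02 CPM against 52.4 to 52.7 in the other 3 clones. On day B clone 4 stood apart in RRM2 at 540.4 CPM against 678 to 693, CTPS1 at 126 CPM against 144 to 147, PDCD4 at 22.7 CPM against 12.8 to 13.95, IER3 at 167 CPM against 81.9 to 89.1, DBP at 29.98 CPM against 14.8 to 15.9 and H2AC6 at 4.57 CPM against 2.03 to 2.40 in the other 3 clones. On day C clone 3 stood apart in WIPI1 at 7.06 CPM against 9.19 to 9.53 and SPRY4 at 48.7 CPM against 67.1 to 69.96 in the other 3 clones. On day C clone 4 stood apart in ACSS2 at 33.7 CPM against 28.2 to 28.7, EGR1 at 19.9 CPM against 26.8 to 27.2 and HNRNPH1 at 872 CPM against 832 to 835 in the other 3 clones. No cause of these single values was tested.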

How the results depend on the processing

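Of 129 results, each a gene in 1 comparison, followed over the 24 alternatives, 126 passed as reported. None of the called results reversed, and 22 lost or gained the call under at least 1 alternative. The results covered day A against days B and C and also day B against day C, so that a gene could count in both. The 6331 calls became 5037 without the replicate block (no clone term), 6336 with RLE factors, 6364 with upper-quartile factors, 6286 with total counts, 6383 without the filter, 5527 in DESeq2 and 5926 with days B and C as replicates. Of the 6331 genes, 5020, 6313, 5460, 5712, 5840, 5508 and 5924 passed in those fits. Tested against a 1.2-fold change, 2259 genes passed, 1505 higher and 754 lower. At that bar the counts were 15 for replication, 33 for ribosome biogenesis, 10 for p53 targets, 8 for cholesterol, 4 for heat shock, 6 for the proteasome, 2 for the mitochondrial ribosome, 9 for interferon and 1 for ribosomal proteins. Without the replicate block 1658 genes were higher against day C, and between B and C 0 were higher and 0 lower, 0 in all. Between B and C 260 genes passed without the filter (118 and 142), 62 in DESeq2 (35 and 27), and 0 were lower on B with upper-quartile factors. Ribosomal proteins that rose numbered 25 with upper-quartile factors, 22 with total counts, 17 without the filter and 7 with B and C as replicates. The mean rise in ribosomal protein share was 0.71 percentage points and did not pass after adjustment over the library measures (exact permutation p = 0.0494, adjusted 0.0741). Its median over clones was 0.392 percentage points and did not pass either.

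Leaving out 1 clone or 1 library gave 3427 to 6902 calls for day A, 1950 to 3490 higher and 1477 to 3412 lower. Against day B there were 2688 to 6774 calls, 1498 to 3400 higher and 1190 to 3374 lower. Against day C there were 1901 to 5598, 1081 to 2747 higher and 820 to 2851 lower. Between B and C there were 0 to 279, 0 to 111 higher and 0 to 168 lower. The lists ranged from 26 to 44 for replication, 9 to 15 for heat shock, 13 to 28 for the proteasome, 11 to 46 for the mitochondrial ribosome, 9 to 16 for interferon and 3 to 31 for ribosomal proteins. The ribosomal protein share differed by 0.333 to 0.876 and the share of the 20 most abundant genes by 0.643 to 0.838 percentage points without 1 clone. The cause of these changes was not tested. Genes removed by the filter for low counts could not be tested at this depth.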

Other observations

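The most abundant difference between days B and C did not pass. ENSG00000226958.1, which has no symbol in the gene table used, had means of 4008 CPM on day A, 3909 on day B and 10439 on day C (B minus C -1.36 on the log2 scale, adjusted p = 0.349). It was at 4142, 4025, 6693 and 777 CPM in clones 1 to 4 on day B and 17192, 7885, 13998 and 2679 on day C. In clone 4 day A was the highest, at 7787 CPM, while in clones 2 and 3 it was the lowest, at 1840 and 2170. MIR663AHG and MIR3648-2 were also lower on day B than on day C in each clone, with B minus C of -1.19 and -1.20 and adjusted p of 0.362 and 0.352. These 3 genes were chosen after their values were seen.

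IL18, an interleukin of the inflammasome pathway that intestinal epithelium also makes, was at 92.2, 87.5, 107 and 57.3 CPM on day A and rose by 1.17 (adjusted p = 8.31e-07). The growth factor AREG rose by 0.68 with overlap (adjusted p = 0.000102). The lactate transporter SLC16A1 fell by 0.33 without overlap (adjusted p = 0.000363), and NQO1 and FTL, oxidative stress and iron storage genes, rose by 0.38 each (adjusted p = 0.000401 and 0.00067).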
